A study of Mus musculus with 4 samples.

Results

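Imprinted genes, which are read from 1 parental copy, were followed in hair follicle stem cells of newborn mice with and without the microRNA miR-205. The set held 10 listed genes from several imprinted clusters, namely Snhg14, Snrpn, Ndn, H19, Igf2, Cdkn1c, Meg3, Peg3, Mest and Plagl1. Members were the probe sets annotated to 1 of these symbols alone, which gave 35 of the 45101 probe sets of the array and covered 9 of the 10 genes. H19 had no such probe set, because the 1 that carries its name is also annotated to Mir675, a microRNA made from the H19 transcript. 6 further probe sets were annotated to both Snrpn and Snurf, 2 reading frames of one transcript, and these 7 are given separately and are not counted among the 35. The set was chosen by earlier results of these arrays, namely that the values of Snhg14 were lower in KO cells within both replicate numbers. Its difference between KO and WT cells, and those of the other members in the same contrast, are therefore given as descriptions without a test.

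The study hybridised total RNA of 4 samples to Affymetrix mouse arrays. 2 samples came from miR-205 KO mice and 2 from WT mice, all on a C57BL/6 background and taken from skin at postnatal day 4, with the stem cells sorted by flow cytometry. The titles number the biological replicates 1 and 2 in each group, and the arrays are called KO 1, KO 2, WT 1 and WT 2 here. The labels do not say whether the KO acts in the whole animal or in the skin alone, nor whether a sample was 1 animal or a pool, so any p-value measures the spread between these samples. A treatment text attached to all 4 samples describes doxycycline induction of another microRNA, miR-203, from a keratin 14 driven system in littermates, and it names no miR-205 allele. Which parental copy was expressed was not measured, so imprinting itself could not be checked on these arrays.

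In an imprinted cluster, DNA methylation laid down in the egg or the sperm marks a control region, and the mark decides which parental copy of the neighbouring genes is transcribed. Many clusters hold a long noncoding RNA beside protein-coding genes. Snhg14 is the long noncoding transcript of the paternal Snrpn cluster, the mouse counterpart of the Prader-Willi and Angelman region. It hosts many small nucleolar RNAs, and its far end runs antisense to Ube3a. Several imprinted genes, among them H19, Igf2, Meg3, Peg3, Cdkn1c and Plagl1, are known for high levels in embryonic and newborn mesenchyme and for control of growth.

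The microRNA that the KO mice lacked is shown first because it defines the contrast. The capitals mark its seed, bases 2 to 8. The sequence is from RefSeq, build GRCm38.p6, at chr1:193507503-193507524 on the minus strand.
mmu-miR-205-5p: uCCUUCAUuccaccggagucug

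The start of Snhg14 bears on the question whether its cluster follows it. In the RefSeq table (GRCm38.p6) the interval of Snrpn and Snurf lies inside that of Snhg14, Ube3a overlaps it, and Ndn lies outside it. Windows of 300 bases, from 250 before to 50 after an annotated start, were matched for 8 of the 10 genes; H19 and Cdkn1c were not matched. Snhg14 and the longest Snrpn transcript have the same window, on the minus strand of chromosome 7. The 3 windows below are that shared start, the downstream start of Snurf and Snrpn, and the start of Ndn, a neighbour in the same cluster with its own promoter. The capitals mark the letters CGCATGCG, which read the same on both strands and form the inner part of the palindromic motif known for the transcription factor NRF1.
Snhg14 and upstream Snrpn, chr7:60450128-60450427, minus strand: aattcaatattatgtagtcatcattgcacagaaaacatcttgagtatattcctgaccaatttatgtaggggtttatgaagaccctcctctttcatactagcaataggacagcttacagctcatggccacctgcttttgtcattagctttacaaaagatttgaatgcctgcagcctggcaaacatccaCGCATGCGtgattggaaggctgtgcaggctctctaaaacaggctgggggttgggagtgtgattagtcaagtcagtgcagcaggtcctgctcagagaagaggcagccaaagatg
Snurf and Snrpn, chr7:60005150-60005449, minus strand: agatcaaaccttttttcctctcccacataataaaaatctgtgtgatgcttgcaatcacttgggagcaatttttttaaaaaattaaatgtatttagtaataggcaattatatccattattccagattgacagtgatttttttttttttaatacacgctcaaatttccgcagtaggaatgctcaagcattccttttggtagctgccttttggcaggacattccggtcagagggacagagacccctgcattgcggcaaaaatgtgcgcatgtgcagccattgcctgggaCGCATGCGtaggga
Ndn, chr7:62348027-62348326, plus strand: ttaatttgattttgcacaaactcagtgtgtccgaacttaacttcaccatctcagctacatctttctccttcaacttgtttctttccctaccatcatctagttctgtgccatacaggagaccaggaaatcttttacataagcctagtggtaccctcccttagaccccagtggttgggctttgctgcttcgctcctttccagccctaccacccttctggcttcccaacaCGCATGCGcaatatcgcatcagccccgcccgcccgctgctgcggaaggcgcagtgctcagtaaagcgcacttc

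All 5 distinct windows of Snhg14, Snrpn, Snurf and Ndn held these letters, and none of the other 11 windows of the listed genes did. Of the 32817 distinct windows in the table, 611 (1.86%) held them. The letters were chosen after these windows had been read, so the counts are a description. 3 of the 5 windows, the shared start and 2 further upstream Snrpn starts, were 79.7% to 81.4% identical to each other in a global alignment, and so are not separate cases. The other pairs compared were at most 52.9% identical. The shared Snhg14 and Snrpn window held 2 CpG sites, that of Ndn 11, and that of Plagl1 26, against a median of 7 over all windows.

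Snhg14 differed between the groups in 2 of its 3 probe sets. On the brighter one (1455087_at) the log2 value was 5.59 on KO 1, 5.55 on KO 2, 6.33 on WT 1 and 6.31 on WT 2. Both KO arrays lay below both WT arrays, and the arrays of a group were nearly equal. The difference was -0.75 on the log2 scale (SE 0.04, n = 2 each), a KO level of 0.595 times the WT level. On the second probe set (1436964_at) the values were 5.66 and 5.26 in KO and 6.18 and 6.17 in WT cells, a difference of -0.72 (SE 0.17). The third (1445296_at) read 3.03 to 3.10 on all 4 arrays, near the lowest values of the table, and showed no separation. The first 2 were of middling brightness, with means at percentiles 51.2 and 49.2 of all probe sets. The table holds no detection calls, so a dim value cannot be told from background.

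No probe set of the whole table passed limma's test of KO against WT at an adjusted p under 0.05, that is 0 of 45037 (0.0%). The smallest adjusted p was 0.086, and 932 probe sets (2.07%) had an unadjusted p under 0.05. The KO and WT arrays also differed in genes that mark sex. Xist, the RNA that silences an X chromosome, was at 5.26 and 5.45 in KO and at 13.28 and 13.19 in WT cells, while Eif2s3y, on the Y chromosome, was at 9.59 and 9.57 in KO and at 3.05 and 2.86 in WT cells. The absence of miR-205 and the sex of the animals therefore cannot be told apart for any gene on these arrays, Snhg14 included. Neither Xist nor Eif2s3y passed limma's test, so the lack of a call does not show that a gene was unchanged.

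The genes whose profile lay nearest to that of Snhg14 were compared over the 4 arrays, among 19449 probe sets of 1 gene at or above the median level. Nearness was the Euclidean distance between values centred on their own mean. The nearest was Kdm6a (distance 0.195), a histone demethylase gene of the X chromosome, at 9.004 and 8.72 in KO and 9.59 and 9.48 in WT cells. The next was Kdm5c (0.210), also an X-linked histone demethylase gene, at 6.27 and 6.33 in KO and 7.13 and 6.84 in WT cells. Kdm6a and Kdm5c are known to be expressed from both X chromosomes in females. The next 3 genes were Gsto1, which codes for a glutathione transferase, Rbm39, which codes for a splicing factor, and Rps4l, a relative of the ribosomal protein S4 genes, at 0.234, 0.255 and 0.280. Of the members, a probe set of Peg3 came nearest (0.449), at rank 67.

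**Figure D1:**
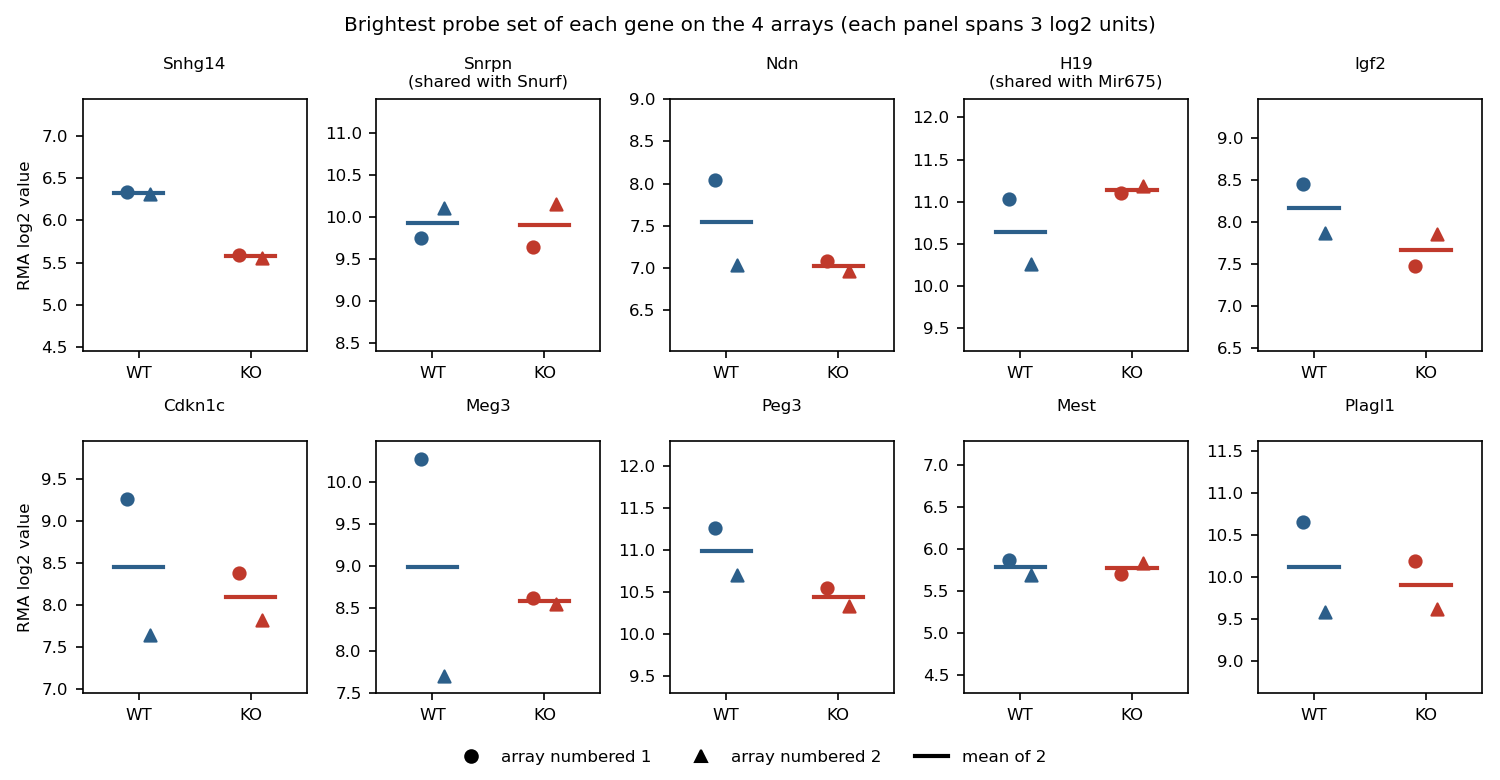
RMA log2 values of the brightest probe set of each listed gene (vertical axes, each spanning 3 log2 units) on the WT and KO arrays, with circles for arrays numbered 1, triangles for arrays numbered 2 and bars for the mean of 2. Snhg14 shows tight groups that do not overlap, while Meg3, Cdkn1c, Plagl1 and Ndn show WT 1 above the other 3 arrays.

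Of the 8 genes of the Snrpn cluster measured by a probe set of their own, 5 were lower and 0 higher in KO cells within both numbers, against 16.8% and 24.0% of all genes. The 5 were Snhg14, Ndn, Magel2, Mkrn3 and Atp10a, and Snhg14, for which the set was chosen, is counted among them. The sizes differed: Snhg14 and Ndn differed by -0.75 and -0.52 on their brightest probe sets, and the other 3 by -0.13 to -0.06. Snrpn, which codes for a spliceosomal protein, had 1 probe set of its own (1432096_at), at 5.54 on KO 1, KO 2 and WT 2 and at 5.38 on WT 1. The brightest of those shared with Snurf (1415895_at) was at 9.65 on KO 1, 10.16 on KO 2, 9.75 on WT 1 and 10.11 on WT 2. These values paired by array number and not by genotype, with a KO minus WT difference of -0.02 (SE 0.26). The next (1415896_x_at) did the same, with a difference of -0.0035 (SE 0.28). Of the other 4 shared probe sets, 2 were lower in KO cells within both numbers, by -0.18 (SE 0.09) on 1435716_x_at and by -0.48 (SE 0.29) on 1421063_s_at, which lay below the median level.

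Ndn, which codes for necdin, a MAGE family protein that restrains growth, had 5 probe sets above the median level and 3 near the bottom of the scale. On 1435383_x_at the values were 6.999 on KO 1, 6.36 on KO 2, 8.48 on WT 1 and 6.66 on WT 2. WT 1 stood above the other 3 arrays, and KO 1 lay above WT 2, so the groups overlapped. The difference was -0.89 (SE 0.79), formed of -1.48 between the arrays numbered 1 and -0.29 between those numbered 2. All 5 were lower in KO cells within both numbers, with differences from -0.89 to -0.52. They target 1 gene and are no separate evidence. Without WT 1 their differences ran from -0.09 to 0.06.

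Of the other genes of the cluster, Magel2, a second MAGE family gene, differed by -0.12 (SE 0.06) and Mkrn3, a makorin ring finger gene, by -0.06 (SE 0.10), both on probe sets below the median level. Peg12, also dim, read 2.72 to 2.82 on the 4 arrays. Ube3a, the ubiquitin ligase gene that overlaps Snhg14, was at 10.63 and 10.08 in KO and at 10.59 and 10.11 in WT cells. The difference was 0.01 (SE 0.30), and whether Snhg14 RNA reached Ube3a in these cells was not measured. Atp10a, a phospholipid transporter gene, differed by -0.13 (SE 0.10). Among 7 measured genes that flank the cluster and are expressed from both copies, 1 was lower and 1 higher in KO cells within both numbers, with a median difference of 0.06. Nipa1, a magnesium transporter gene, differed by 0.18 (SE 0.13) and the pigment gene Oca2 by -0.20 (SE 0.14).

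**Figure D2:**
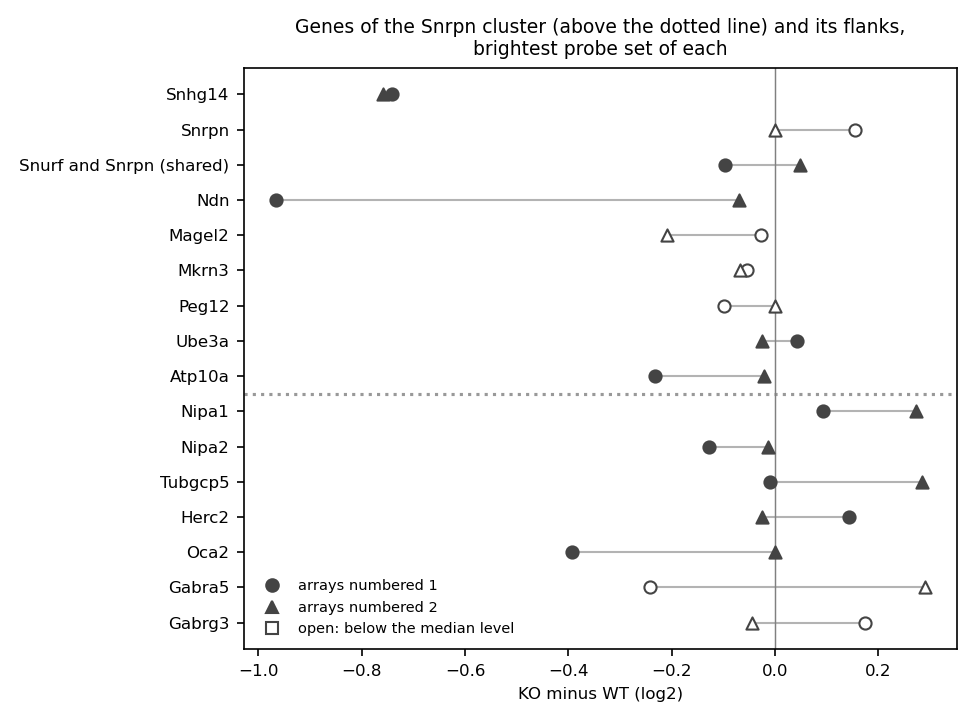
KO minus WT difference in log2 (horizontal axis) of the brightest probe set of each gene of the Snrpn cluster and its flanks, with circles for arrays numbered 1, triangles for arrays numbered 2 and open symbols below the median level. Both symbols lie near -0.75 for Snhg14, they lie far apart for Ndn (-0.96 and -0.07), and they lie between -0.39 and 0.29 for the other genes.

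Outside the cluster, Peg3 was lower in KO cells within both numbers on all 3 of its probe sets above the median level. It is a paternally expressed zinc finger gene active in progenitor cells of many tissues. Its brightest probe set (1433924_at) was at 10.55 on KO 1, 10.33 on KO 2, 11.26 on WT 1 and 10.70 on WT 2. Both KO arrays lay below both WT arrays, and WT 1 was highest. The difference was -0.54 (SE 0.25), and that of 1417356_at was -0.48 (SE 0.24), also without overlap. On 1417355_at KO 1 and WT 2 were both at 9.64, and the difference was -0.47 (SE 0.30). Without WT 1 the 3 differences ran from -0.26 to -0.13. The other 2 probe sets of Peg3 read 2.91 to 3.07. Its neighbours Usp29, Zim1 and Zim3 were dim and differed by 0.03, -0.14 and 0.09.

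The members of the distal chromosome 7 clusters went different ways. Igf2, the growth factor gene expressed from the paternal copy, was at 7.47 on KO 1, 7.86 on KO 2, 8.45 on WT 1 and 7.87 on WT 2 (1448152_at). KO 2 and WT 2 were nearly equal, KO 1 lay below them and WT 1 above them, so that the difference of -0.50 (SE 0.29) was -0.98 between the arrays numbered 1 and -0.01 between those numbered 2. The second probe set of Igf2 read 3.70 to 3.73 on all arrays. The probe set shared by H19, the maternally expressed noncoding partner of Igf2, and Mir675 was at 11.10 on KO 1, 11.18 on KO 2, 11.03 on WT 1 and 10.26 on WT 2. Here 1 array stood low, WT 2, and the difference was 0.50 (SE 0.32), opposite in sign to that of Igf2.

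Cdkn1c, which codes for the cyclin-dependent kinase inhibitor p57, was at 8.38 on KO 1, 7.82 on KO 2, 9.26 on WT 1 and 7.64 on WT 2. The KO arrays lay between the WT arrays, with a difference of -0.35 (SE 0.70). Kcnq1ot1, the noncoding RNA of that cluster and no member, was at 8.43 and 8.40 in KO and at 8.58 and 8.496 in WT cells on its brightest probe set. The difference was -0.13 (SE 0.05), and 3 other probe sets of it above the median level differed by -0.35, -0.46 and -0.17, all lower in KO cells within both numbers. It did not pass limma's test (adjusted p = 0.996). Cd81, a tetraspanin gene of the same region, differed by -0.20 (SE 0.11) and Ins2, an insulin gene, by -0.10 (SE 0.07).

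Meg3, the maternally expressed noncoding RNA of the Dlk1-Dio3 cluster, varied most among the members. On 1439380_x_at it was at 8.62 on KO 1, 8.55 on KO 2, 10.28 on WT 1 and 7.70 on WT 2. The WT arrays were the highest and the lowest of the 4, with both KO arrays between them. The difference of -0.40 (SE 1.06) was -1.66 between the arrays numbered 1 and 0.85 between those numbered 2. Of its 11 probe sets, 8 lay at or above the median level, 7 of those had WT 1 as the highest array, and 1 (1429257_at) differed by 0.10 (SE 0.11) with WT 1 lowest. Dlk1, the paternally expressed partner that codes for a membrane protein of the Notch ligand type, differed by -0.95 between the arrays numbered 1 and by 0.10 between those numbered 2. Rian and Mirg, further noncoding RNAs of the cluster, differed by -0.12 (SE 0.15) and -0.04 (SE 0.05) on their brightest probe sets. The other probe sets of Rian, all below the median level, differed by -0.40, -0.36 and -0.41, with WT 1 highest on each. That of Mirg, also dim, differed by -0.07.

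Plagl1, a zinc finger transcription factor gene known to act on other imprinted genes, was at 10.19 on KO 1, 9.62 on KO 2, 10.65 on WT 1 and 9.58 on WT 2 (1426208_x_at). The arrays numbered 1 were higher than those numbered 2 in both groups, and the KO minus WT difference was -0.21 (SE 0.50). Mest, a gene of the hydrolase fold family, read 5.70 on KO 1, 5.84 on KO 2, 5.87 on WT 1 and 5.69 on WT 2. That probe set lay below the median level, and its difference was -0.01 (SE 0.10).

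Over all 35 probe sets, 13 were lower and 2 were higher in KO cells within both array numbers. Of all probe sets 18.3% were lower and 20.8% higher in that sense. The 13 belonged to 5 genes, with 5 from Ndn, 4 from Peg3, 2 from Snhg14 and 1 each from Igf2 and Meg3. In 7 probe sets both KO arrays lay below both WT arrays, against 6.33% of all probe sets, and in none did both lie above them, against 6.94%. At or above the median level it was 4 of 21, against 6.65%. The median difference was -0.22 over the 35 and 0.00 over all probe sets. Nothing is read from these shares, since the contrast was used to choose the set and probe sets of a gene share their target.

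**Figure D3:**
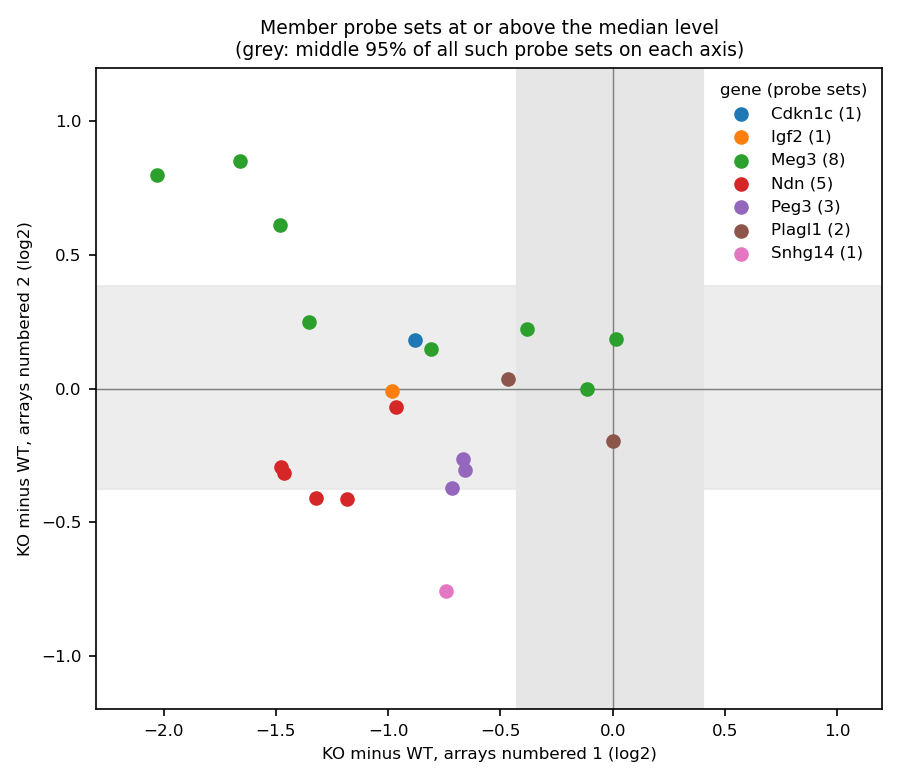
KO minus WT difference in log2 between the arrays numbered 1 (horizontal axis) and between the arrays numbered 2 (vertical axis), for the 21 member probe sets at or above the median level, with grey bands that leave out 2.5% of all such probe sets at either end of each axis. Snhg14 lies at -0.74 and -0.76, the Peg3 and Ndn points lie below 0 on both axes, and 4 of the Meg3 points lie between -2.03 and -1.35 on the horizontal axis and above 0 on the vertical axis.

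A large part of the members' spread lay in a single array. WT 1 was the highest of the 4 arrays in 23 of the 35 probe sets, from 8 genes, against 17.6% of all probe sets. Of the 21 at or above the median level it was highest in 19, against 22.5%. In 8 of the 21 WT 1 was at least 2-fold above each other array, 4 from Meg3 and 4 from Ndn, against 0.431% of all such probe sets and 0.344% of the whole array. The median range over the 4 arrays was 1.08 for the 21 and 0.26 for all probe sets at or above the median level.

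Markers of dermal fibroblasts, cells of the skin's connective tissue that a sort can carry over, were spread over the arrays in the same direction. 15 of 16 markers had their top value on WT 1, and 12 of the 16 had the order WT 1, KO 1, KO 2, WT 2. Their summed level on the linear scale was 53390 on WT 1 and 13486 on WT 2, and 31720 on KO 1 and 16501 on KO 2. The dimmest was the receptor gene Pdgfrb, at 4.601 to 7.54, with a mean below the median level. The widest range was that of the collagen gene Col1a1, at 10.81 on KO 1, 9.01 on KO 2, 11.80 on WT 1 and 8.47 on WT 2. Pdgfrb, Mfap5 and Dpt, of microfibrils and matrix in the latter 2 cases, had ranges of 2.94, 2.90 and 2.89. Among markers of other cells, WT 1 was highest in 5 of 8 for melanocytes and 2 of 7 for endothelium, against 17.4% of all genes. It was highest in 0 of 7 for immune cells and 0 of 3 for Schwann cells. The part of fibroblasts or other cells in the members' differences was not tested. In such bulk samples more cells of a type and more RNA per cell cannot be told apart.

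The same order of arrays occurred in 6 of the 21 member probe sets, 4 from Meg3 and others from Cdkn1c and Plagl1, against 5.69% of all such probe sets and 3.66% of the whole array. Snhg14 had another order on its brighter probe set, with WT 1 and WT 2 above KO 1 and KO 2. Peg3 and Ndn had WT 1 highest and KO 2 lowest. Markers of basal keratinocytes and follicle stem cells, the labelled cells, were bright on all arrays. Krt5 was at 13.47 to 13.76 and Krt15 at 13.62 to 14.05, and these were not picked by widest range. Summed levels were 58557 on WT 1, 57934 on WT 2, 64687 on KO 1 and 64145 on KO 2. Of the 10 markers, 7 were higher and 1 lower in KO cells within both numbers, against 24.0% and 16.8% of all genes. In 4 of the 10 both KO arrays lay above both WT arrays, against 8.2%. Skeletal muscle markers, of interest because newborn muscle is rich in H19 and Igf2 RNA, were dim: 2 of 9 lay at or above the median level, and their sums were 404 to 468. The part of muscle cells in the H19 and Igf2 values was not tested.

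**Figure D4:**
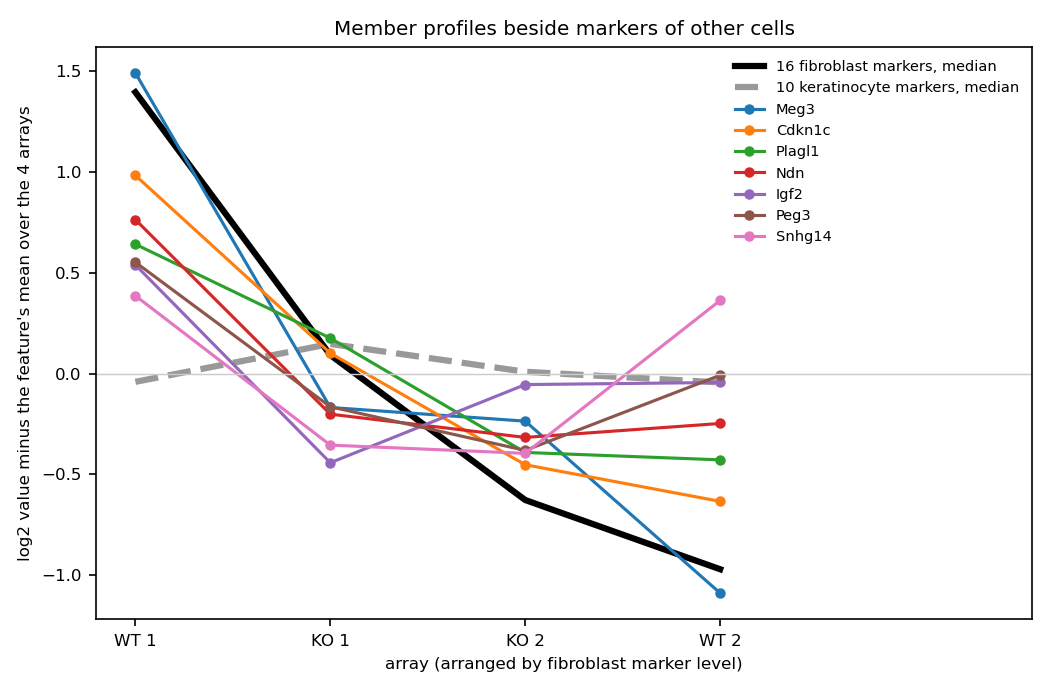
Log2 values minus the mean over the 4 arrays (vertical axis) on each array (horizontal axis, arranged by fibroblast marker level), for the brightest probe set of 7 member genes and the medians of 16 fibroblast and 10 keratinocyte markers. Meg3, Cdkn1c and Plagl1 fall from WT 1 to WT 2 as the fibroblast median does (1.40 to -0.97), and Snhg14 is at 0.39 on WT 1 and 0.36 on WT 2.

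Levels were also compared between the array numbers, a contrast that the choice of the set had not used. With genotype in the model, 0 of the 35 member probe sets and 0 of all 45037 (0.0%) passed limma's test at an adjusted p under 0.05. The smallest adjusted p was 0.305. At an unadjusted p under 0.05 there were 2 of the 35, against 7083 (15.7%) of all, a share of the members that was not above that of the table. By sign, 27 of the 35 were lower on the arrays numbered 2, with a median difference of -0.18 against 0.01 over all probe sets. At or above the median level it was 20 of 21, with medians of -0.69 for these and -0.03 for all such probe sets. Probe sets of a gene share their target, so these counts are a description. Plagl1 was lower on the arrays numbered 2 by 0.82 (difference -0.82, SE 0.17, limma adjusted p = 0.31), with 10.19 and 10.65 on the arrays numbered 1 and 9.62 and 9.58 on those numbered 2. For Ndn (1455792_x_at) the difference was -1.33 (SE 0.26, limma adjusted p = 0.307). The 2 brightest probe sets of Snurf and Snrpn went the other way, with differences of 0.44 (SE 0.06) and 0.47 (SE 0.05), both at a limma adjusted p of 0.305. On the brighter probe set of Snhg14 the difference was -0.03 (SE 0.04).

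Imprinted genes outside the set were examined to see whether they followed Snhg14. Of 57 listed, 50 were measured. None passed limma's test of KO against WT in either direction, with a smallest adjusted p of 0.996, and none had an unadjusted p under 0.05. The test called no probe set of the table, those of Xist included, so it cannot show that these genes were unchanged. 10 of the 50 (20.0%) were lower and 9 (18.0%) higher in KO cells within both numbers, against 16.8% and 24.0% of all genes. Their median difference was -0.04. By smallest p, the genes of the Mest and Peg10 clusters were Pon2 (0.19), Asb4 (0.20), Sgce (-0.23) and Klf14 (-0.19). Among other imprinted genes Slc22a2 differed by 0.17, Commd1 by 0.14, Sfmbt2 by 0.16 and Gnas by -0.09. Grb10, an adaptor of the insulin receptor, and Dcn, the proteoglycan decorin, were chosen after their values were seen. Grb10 was at 7.53 and 6.61 in KO and at 8.34 and 6.31 in WT cells, and Dcn at 10.88 and 10.59 in KO and at 12.10 and 10.27 in WT cells, both in the order of the fibroblast markers. Of the 50, 4 (8.0%) had that order, against 4.33% of all genes. WT 1 was the highest array in 19 of the 50 (38.0%), against 17.4% of all genes. At or above the median level it was highest in 14 of 29 (48.3%), against 21.3%.

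The enzymes and factors that keep the methylation of imprinting control regions did not pass either. All 14 were measured, 0 were called, and 1 was lower and 1 higher within both numbers (7.14% each), against 16.8% and 24.0% of all genes. The median difference was 0.01 with a median range of 0.12 over the 4 arrays. Dnmt3b, a de novo DNA methyltransferase gene, differed by -0.07 (SE 0.04) on its brightest probe set and by 0.07 on another above the median level. Dnmt3a differed by 0.03 (SE 0.04), the demethylation enzyme gene Tet3 by 0.18 (SE 0.20), and the dim Dppa3 by 0.24 (SE 0.15). Dnmt1, the maintenance methyltransferase gene, read 10.50 to 10.61 on the 4 arrays.

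Other transcripts that host small nucleolar RNAs were compared with Snhg14. Of 10 measured, 0 were called by limma and 1 had an unadjusted p under 0.05. Within both numbers 4 were lower and 0 higher, against 16.8% and 24.0% of all genes, with a median difference of -0.08. Snhg8 was at 10.87 and 10.91 in KO and at 11.01 and 11.02 in WT cells, a difference of -0.12 (SE 0.04, limma adjusted p = 0.996). Snhg3 differed by -0.27 (SE 0.18), Snhg6 by 0.16 (SE 0.10) and Snhg17 by -0.07 (SE 0.06). Other probe sets of the host Gas5 above the median level differed by -0.43, -0.35 and -0.03. Those of the host Snhg1 differed by -0.43, -0.29, -0.18 and -0.15. All of these but the -0.03 were lower in KO cells within both numbers. None reached the size of the difference in Snhg14.

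Genes of the wider system to which Igf2 belongs were the last group. Of 13 measured members of the insulin-like growth factor system, 0 were called, 7 (53.8%) were lower and 1 (7.69%) higher within both numbers, against 16.8% and 24.0% of all genes, and the median difference was -0.10. Irs2, an adaptor of the receptors, differed by -0.22 (SE 0.14), the ligand gene Igf1 by -0.13 (SE 0.08), its receptor gene Igf1r by -0.16 (SE 0.11) and Igf2bp1, which codes for a protein that binds Igf2 RNA, by -0.06 (SE 0.05). 8 of the 13 (61.5%) had their top value on WT 1, against 17.4% of all genes.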

How the data were processed

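Total RNA of 4 sorted samples was labelled with biotin and hybridised to Affymetrix mouse arrays, per the labels. The authors deposited log2 expression values. The submitters' processing notes name RMA without a version, a method that corrects background, gives the arrays 1 distribution and combines the probes of each set. The values ran from 2.51 to 14.56, array medians were 5.85 to 5.87 and correlations between arrays 0.991 to 0.996. In 47.1% of probe sets at least 2 arrays had equal values, among them 11 of the 35 member probe sets. Scan dates, detection calls and probe positions were not given in the sources used here, and the number of arrays limits the precision.

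Symbols came from GEO's platform annotation: of 45037 probe sets without the 64 controls, 34945 had 1 symbol, 932 several and 9160 none, and 34741 gene identifiers were in the GRCm38.p6 RefSeq table. KO was compared with WT, and number 2 with number 1 given genotype, with limma 3.58.1 under R 4.3.3. The moderated test was two-sided, p-values were adjusted by Benjamini-Hochberg over all 45037 with a threshold of 0.05, and no filter was set. SE is the moderated standard error and n = 2 arrays per group. Genes of lists were taken at their probe set of highest mean. The median level is the median of 5.87 over probe set means. The fit was tested on simulated data. Windows were aligned with Biopython 1.88.

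The members and gene lists were chosen with earlier results of these data known. The genes named include all members and up to 4 genes of smallest p per list. Also named are the 5 nearest to Snhg14 and the fibroblast markers of widest range. Others, Krt5 and Krt15 among them, were named outside these rules and are not all marked. Alternatives were another normalization, no dim probe sets, 1 probe set per gene, a replicate block, other eBayes settings, a threshold of 0.1 and leaving out each array. Exact permutation of 2 against 2 arrays cannot give a two-sided p below 0.33 and was not used.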

Additional observations from a re-analysis of the deposited data

How the results depend on the processing

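The number of probe sets called between KO and WT was 0 as reported, 6 with quantile normalization again, 4 with median centring, 4 without dim probe sets, 2 with 1 probe set per gene and 3 at a threshold of 0.1, among them Xist and Eif2s3y in the first 4 of these settings. It was 0 with the other eBayes settings and in each of the 4 fits that leave out an array, where the lone array is assumed to vary like the other group. Between the array numbers median centring called 209 probe sets, 86 higher and 123 lower on number 2, and the cause was not tested. Each other setting called 0. The count of member probe sets lower in KO cells within both numbers, 13, was 16 with quantile normalization again, 13 with median centring, 10 of 21 without dim probe sets and 4 of 9 with 1 probe set per gene, where fewer are counted. Leaving out an array leaves 1 pair, and the count was then 19 (without KO 1 or WT 1) to 26 (without KO 2 or WT 2).

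Member differences kept 1 sign over the 4 fits that leave out an array in 13 of 35 probe sets. Those of Snhg14 ran from -0.77 to -0.73 and from -0.92 to -0.51, that of Cdkn1c from -1.16 to 0.46, and that of Meg3 (1439380_x_at) from -1.69 to 0.89. Other settings moved none by more than the spread within groups. Deviations of same-numbered arrays from their group means correlated at 0.57 across probe sets, over only 2 pairs and with no shared litter or day in the labels. A replicate block called 0 probe sets (smallest adjusted p 0.763), so it changed no call. Dim probe sets, 14 of the 35, may hold no signal.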
